A study of Mus musculus with 12 samples.

Results

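The miRNAs described here are mmu-miR-146a-5p, mmu-miR-146b-5p, mmu-miR-146b-3p and mmu-miR-155-5p (written below without the species prefix), chosen by name as miRNAs whose genes respond to NF-kB. They are 4 of the 932 rows of a small RNA table from mitochondria isolated from mouse hearts. The table holds 12 libraries, 6 from db/db mice and 6 from wild-type (WT) mice. db/db mice carry a recessive mutation of the leptin receptor gene and become obese and diabetic. Both genotypes share the tissue and the mitochondrial fraction, and the labels name no treatment. The labels give no age, sex, strain background or wild-type stock. They also do not say whether the libraries stem from different animals, and the p-values below therefore reflect the spread between libraries alone, which may be technical.

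NF-kB is the transcription factor that Toll-like receptors, the interleukin-1 receptor and the tumour necrosis factor receptor activate in immune, endothelial and heart cells. miR-146a, induced by NF-kB, represses the mRNAs of the adaptor proteins Irak1 and Traf6, which lie upstream of NF-kB, and is known as a negative feedback regulator. miR-146b has the same seed and is encoded at another locus. miR-155 is made from the noncoding transcript Mir155hg, is induced in activated macrophages and lymphocytes, and represses Socs1 and Inpp5d, inhibitors of cytokine and phosphoinositide signalling, so that it is mostly described as promoting inflammation.

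The mature sequences show which of these miRNAs share a target-recognition seed and how alike the miR-146 rows are. They are from RefSeq (GRCm38.p6), which held all 4 miRNAs, and are written 5′ to 3′ with the seed, bases 2 to 8, in capitals.
miR-146a-5p: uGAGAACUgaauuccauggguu
miR-146b-5p: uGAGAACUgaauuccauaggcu
miR-146b-3p: gCCCUAGGgacucaguucuggu
miR-155-5p: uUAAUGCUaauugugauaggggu
The miR-146 5p sequences share the seed GAGAACU, and no other mature mouse miRNA in that table has it. Over 22 bases they differ at 2 positions, counted from 1 at the 5′ end of miR-146a-5p: G18A and U21C. Both lie in the 3′ part, so a read that is trimmed or carries an error there could be given to the wrong row, and the labels do not say how the authors assigned such reads. miR-146b-3p is the opposite arm of the miR-146b hairpin and has a seed of its own, as does miR-155-5p. In the GRCm38 annotation Mir146 lies on the minus strand of chromosome 11 outside any other annotated gene. Mir146b lies on the plus strand of chromosome 19 in an intron of Mfsd13a, a protein-coding gene on the same strand. Mir155 lies on the plus strand of chromosome 16 in an exon of Mir155hg. The submitters' processing notes name the build GRCm39, so no coordinates are given.

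Levels were in RPM, reads per 1000000 reads of all listed rows. Recovered depth was 412749 to 1382046 reads in db/db libraries and 551591 to 962697 reads in WT libraries, so that 1 read was worth 0.724 to 2.42 RPM. db/db library 6 and WT library 4 were the shallowest of their genotypes, and had the largest shares of reads in unnamed rows (0.157% and 0.160%); the fold changes of miR-146a-5p, miR-146b-5p and miR-155-5p are also given without them. The 6 miRNAs of the heart muscle list were above 0 in every library. Their summed level was 342009 to 443847 RPM in db/db libraries and 372617 to 425469 RPM in WT libraries. It came mostly from miR-133a-3p, with a mean of 341153 RPM in db/db and 323867 RPM in WT libraries. At the other end, miR-208a-3p fell to 1.38 RPM, the worth of 1 read, in db/db library 1. With libraries of the mitochondrial fraction alone, whether these miRNAs lie inside mitochondria was not tested. In bulk samples such as these, fewer cells of a type and less RNA per cell cannot be told apart.

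Setting db/db against WT asks how these miRNAs differ in cardiac mitochondrial preparations of a diabetic model. Both miR-146 5p rows averaged lower in db/db libraries and miR-155-5p averaged higher, but none of the 4 miRNAs passed the test over all rows. Across the 646 rows whose mean reached 1 RPM, limma on log2(RPM + 1) called 1, or 0.155%, at an adjusted p under 0.05. That row was miR-22-3p, lower in db/db. At an unadjusted p under 0.05 there were 58 rows (8.98%), of which 30 (4.64% of all tested) were lower in db/db, with miR-146a-5p among them. All 4 miRNAs passed the filter on low values, miR-146b-3p only through its db/db reads. On recovered reads edgeR called 0 of the 4. miR-146a-5p had an unadjusted edgeR p under 0.05, as did 159 of the 646 rows (24.6%) in that fit. The edgeR p of miR-146b-3p was also under 0.05, but nothing is drawn from it, since its WT libraries were all at 0. DESeq2 also called 0 of the 4. Its unadjusted p was under 0.05 for miR-146a-5p, as for 45 rows (6.97%), and its adjusted p was missing for miR-146b-3p and miR-155-5p.

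miR-146a-5p, the feedback repressor of Irak1 and Traf6, was the most abundant of the 4 in every library. It had a lowest, median and highest level of 317, 479 and 653 RPM in db/db libraries, against 540, 668 and 824 RPM in WT libraries. These levels rested on 131 to 631 reads per db/db library and 298 to 739 reads per WT library, and placed it at rank 76 to 103 among the rows of the db/db libraries and 69 to 82 among those of the WT libraries. Every db/db library lay below the WT median, as in 52 of the 646 rows (8.05%), and 4 of the 6, libraries 3 to 6, lay below every WT library. Libraries 1 and 2 of db/db lay within the WT range, so the groups overlapped. How many other rows had as many db/db libraries below every WT library was not counted. The mean was 489 ± 114 RPM in db/db and 672 ± 120 RPM in WT libraries (SD, n = 6 each). The log2 fold change was -0.47 ± 0.19 (SE), with a 95% interval of -0.86 to -0.09 before adjustment, an unadjusted limma p of 0.0166 and a limma adjusted p of 0.504. The lowest level of all, 317 RPM, was in db/db library 6, the shallowest library. Without db/db library 6 the log2 fold change was -0.36, and without both db/db library 6 and WT library 4 it was -0.41 (limma adjusted p = 0.662 and 0.617).

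miR-146b-5p, the seed partner of miR-146a-5p, was present at a lower level. Its lowest, median and highest levels were 45.3, 59.1 and 129 RPM in db/db libraries, against 82.1, 112 and 151 RPM in WT libraries, from 24 to 100 reads and 52 to 131 reads per library. db/db libraries 2, 3, 5 and 6 lay below every WT library, while db/db libraries 1 and 4, at 121 and 129 RPM, were above the WT median. The share of all rows with as many below was not counted here either. The mean was 78.2 ± 36.8 RPM in db/db and 114 ± 26.1 RPM in WT libraries (SD, n = 6 each). The log2 fold change was -0.63 ± 0.32 (SE; 95% interval -1.27 to 0.01; limma adjusted p = 0.570). It was -0.56 without WT library 4 and db/db library 6 (limma adjusted p = 0.703).

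**Figure D1:**
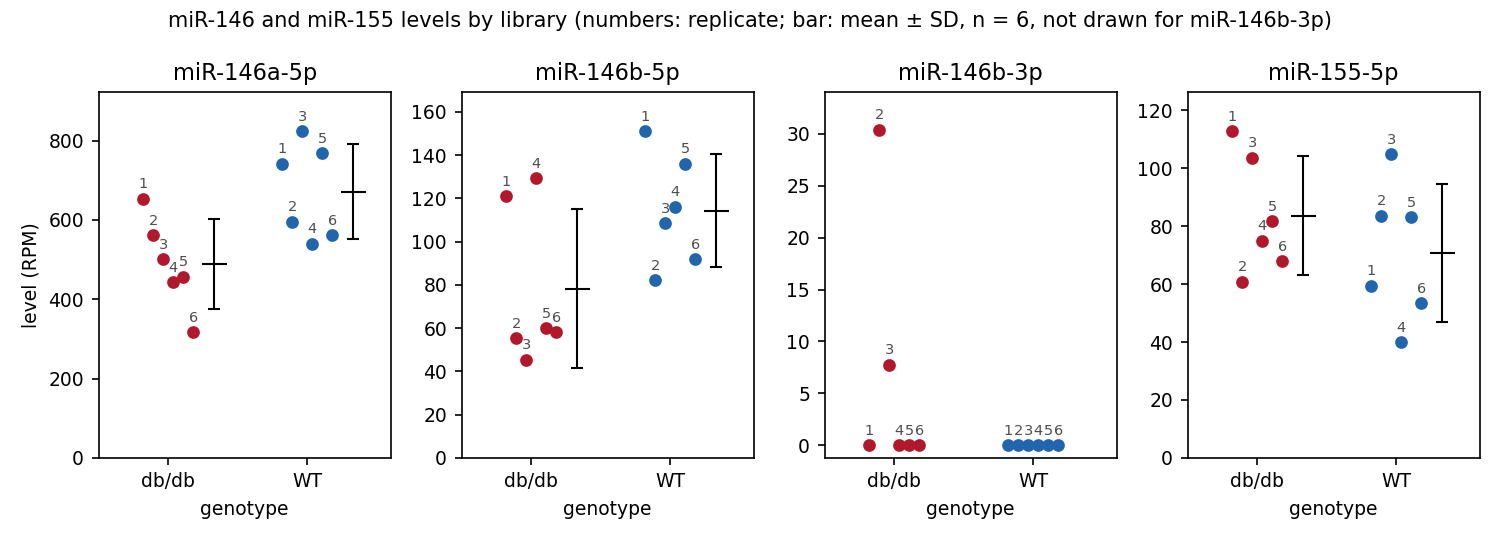
Level in RPM (y axis, linear) of each miRNA in each library, with db/db left and WT right; points are libraries, small numbers their replicate numbers, and bars the mean ± SD of 6 libraries, not drawn for miR-146b-3p. miR-146a-5p spans 317 to 653 RPM in db/db and 540 to 824 RPM in WT libraries, and miR-146b-3p is above 0 in db/db libraries 2 and 3 alone.

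The plot of levels by library shows the overlap between genotypes for miR-146a-5p, miR-146b-5p and miR-155-5p. As a description, with no test, the sum of both miR-146 5p rows was 376 to 775 RPM in db/db libraries and 654 to 932 RPM in WT libraries. It would not change if reads were given to the wrong row of the pair, but it would if reads were counted in both rows. Whether any were counted in both was not tested. Of that sum miR-146b-5p made up 8.29 to 22.6% in db/db libraries and 11.6 to 17.7% in WT libraries. The log2 ratio of miR-146a-5p to miR-146b-5p reads, with 0.5 reads added to each, averaged 2.72 ± 0.63 in db/db and 2.56 ± 0.29 in WT libraries (SD, n = 6 each). The difference of 0.16 was smaller than the SD of either genotype (two-sided exact permutation test, p = 0.584).

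miR-146b-3p, the other arm of the miR-146b hairpin, was read in 2 of the 12 libraries. It had 22 reads (30.4 RPM) in db/db library 2 and 6 reads (7.77 RPM) in db/db library 3. The other 4 db/db libraries and all 6 WT libraries held 0 reads, which allows up to 2.17 to 7.27 RPM in the db/db libraries and 3.12 to 5.44 RPM in the WT libraries (3 reads; counting error only). Pooled over libraries, db/db had 28 reads, or 5.84 RPM, from 2 libraries, and the WT limit was 0.669 RPM. The db/db value was 8.74 times that limit. Of these reads 22 were from db/db library 2. Without it db/db had 6 reads, or 1.48 RPM, 2.21 times the same WT limit (an alternative added after seeing the data). These multiples leave out the counting error of the db/db reads and the spread between libraries, so they do not bound a difference between genotypes. Nothing is drawn from any fitted fold change or p of this row, since it entered the tested rows through db/db reads alone. Rows at 0 in every WT library and above 0 in a db/db library made up 55 of the 646 (8.51%), and 59 rows (9.13%) had the opposite pattern.

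The 2 libraries with miR-146b-3p reads were those with the smallest share of miR-146b-5p in the miR-146 5p sum, 8.97% in db/db library 2 and 8.29% in db/db library 3. In them miR-146b-5p had 40 and 35 reads. The planned log2 ratio of the arms, 5p over 3p, differed by -2.13, db/db minus WT (two-sided exact permutation test, p = 0.130). With the 3p arm at 0 reads in the other 10 libraries, that ratio rests on the added 0.5 reads, and nothing is drawn from it.

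miR-155-5p, which represses Socs1 and Inpp5d, had a lowest, median and highest level of 60.8, 78.4 and 113 RPM in db/db libraries, against 39.9, 71.3 and 105 RPM in WT libraries. These rested on 28 to 113 reads per db/db library and 22 to 84 reads per WT library. db/db library 1 alone lay above every WT library, none lay below every WT library, and the groups overlapped over most of their range. The mean was 83.6 ± 20.5 RPM in db/db and 70.7 ± 23.9 RPM in WT libraries (SD, n = 6 each). The log2 fold change was 0.28 ± 0.33 (SE; 95% interval -0.39 to 0.94; limma adjusted p = 0.733), an interval that spans 0. Leaving out WT library 4, which had the lowest level, lowered it to 0.13, and leaving out db/db library 1 to 0.18 (limma adjusted p = 0.907 and 0.853). It was 0.18 without WT library 4 and db/db library 6 (limma adjusted p = 0.878). The opposite arm, miR-155-3p, had 3 reads in WT library 5 and 2 reads in WT library 6 and 0 reads elsewhere. miR-146a-3p was not among the 932 rows.

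The order of levels was the same at the top in both genotypes, with miR-146a-5p first, but not below it. In db/db libraries miR-146b-5p and miR-155-5p averaged 78.2 and 83.6 RPM, and miR-146b-5p was the higher in 2 of 6 libraries. In WT libraries they averaged 114 and 70.7 RPM, and miR-146b-5p was the higher in 5 of 6. Their ranges overlapped within each genotype. The ligation of adapters favours some miRNAs over others, so RPM orders rows of the table and not molecules in the tissue.

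**Figure D2:**
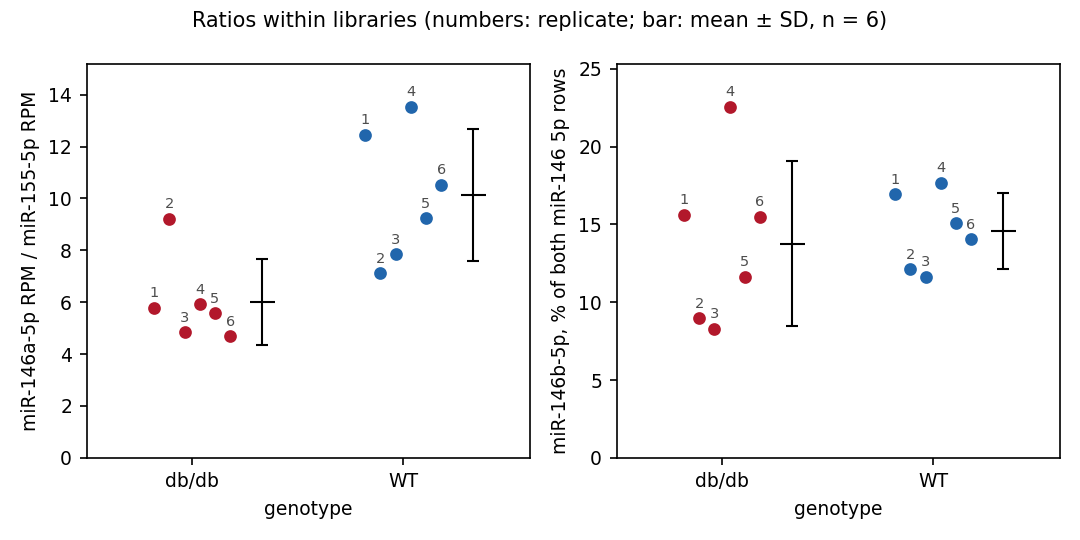
Ratio of miR-146a-5p to miR-155-5p in RPM (left panel) and share of miR-146b-5p in the sum of both miR-146 5p rows in percent (right panel), both on linear y axes from 0, by library, with db/db left and WT right; bars are the mean ± SD of 6 libraries and numbers the replicate. The ratio is 4.68 to 9.23 in db/db and 7.11 to 13.5 in WT libraries.

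The plot of ratios within libraries sets the feedback repressor miR-146a-5p against miR-155-5p without any scaling between libraries. As a description, the ratio was 4.68 at the lowest, 5.69 at the median and 9.23 at the highest in db/db libraries, against 7.11, 9.88 and 13.5 in WT libraries. db/db library 2 lay within the WT range, so the groups overlapped. This ratio was formed with the levels of both miRNAs known and was not tested. As miR-146a-5p averaged lower and miR-155-5p higher in db/db libraries, a lower ratio restates those values and adds no separate result.

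Between libraries of 1 genotype the 3 rows read in every library moved together to different degrees. After the genotype means of log2(RPM + 1) were subtracted, Pearson's r over 12 libraries was 0.59 for miR-146a-5p with miR-155-5p, 0.35 for miR-146a-5p with miR-146b-5p and 0.07 for miR-146b-5p with miR-155-5p (Spearman's rho 0.57, 0.27 and 0.05). These are descriptions: the points share libraries and a common scaling, and r with log2 depth was 0.43 for miR-146a-5p, 0.03 for miR-146b-5p and 0.32 for miR-155-5p. Among miRNAs with a mean of at least 100 RPM, the 3 most like miR-146a-5p were miR-20a-5p (r = 0.78), miR-133a-5p (0.78) and miR-107-3p (0.75). Those most like miR-155-5p were miR-140-3p (0.81), miR-126a-5p (0.80) and miR-34a-5p (0.80). For miR-146b-5p they were miR-203-3p (0.68), miR-133a-3p (0.56) and miR-133a-5p (0.52). miR-146b-5p, with a mean of 96.2 RPM, was itself below the level asked of candidates.

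Other miRNAs described as responsive to NF-kB or Toll-like receptors had no common direction. The list does not separate those raised from those lowered by these signals, so its split gives no reading of NF-kB activity. Of 13 names 11 were tested: 7 had a log2 fold change above 0 and 4 below, with a median of 0.16, beside 308 above, 338 below and a median of -0.04 over all 646 rows. Among the 7 above 0, miR-21a-3p and miR-301a-3p were at 0 RPM in some libraries of each genotype. limma called 0 of the 11, and 4 of the 11 had an unadjusted p under 0.05, 2 higher and 2 lower. Over all rows 58 of 646 (8.98%) had such a p, 28 higher and 30 lower. miR-221-3p, a regulator of the cell cycle inhibitor p27, averaged 1191 ± 111 RPM in db/db and 919 ± 156 RPM in WT libraries (SD, n = 6 each). Its log2 fold change was 0.38 ± 0.16 (SE), with a limma adjusted p of 0.504. The highly abundant miR-125b-5p averaged 47314 ± 10850 RPM in db/db and 36665 ± 6657 RPM in WT libraries (SD, n = 6 each; limma adjusted p = 0.351).

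Those with lower values were miR-21a-5p and miR-223-3p. miR-21a-5p, a stress-induced miRNA of many cell types, was 2591 to 5072 RPM in db/db and 3673 to 5611 RPM in WT libraries (limma adjusted p = 0.198). miR-223-3p, of neutrophils and other myeloid cells, was 175 to 289 RPM in db/db and 306 to 478 RPM in WT libraries. Its log2 fold change was -0.72 ± 0.22 (SE), with a limma adjusted p of 0.109. The groups did not overlap, as in 4 of the 646 rows (0.619%) lower in db/db. miR-132-3p, induced by CREB, was 59.4 to 82.5 RPM in db/db and 46.2 to 129 RPM in WT libraries, and miR-9-5p, which targets the NF-kB subunit gene Nfkb1, was 53.1 to 110 RPM in db/db and 47.4 to 118 RPM in WT libraries. miR-147-3p, which Toll-like receptors induce in macrophages, was at 0 in every library.

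**Figure D3:**
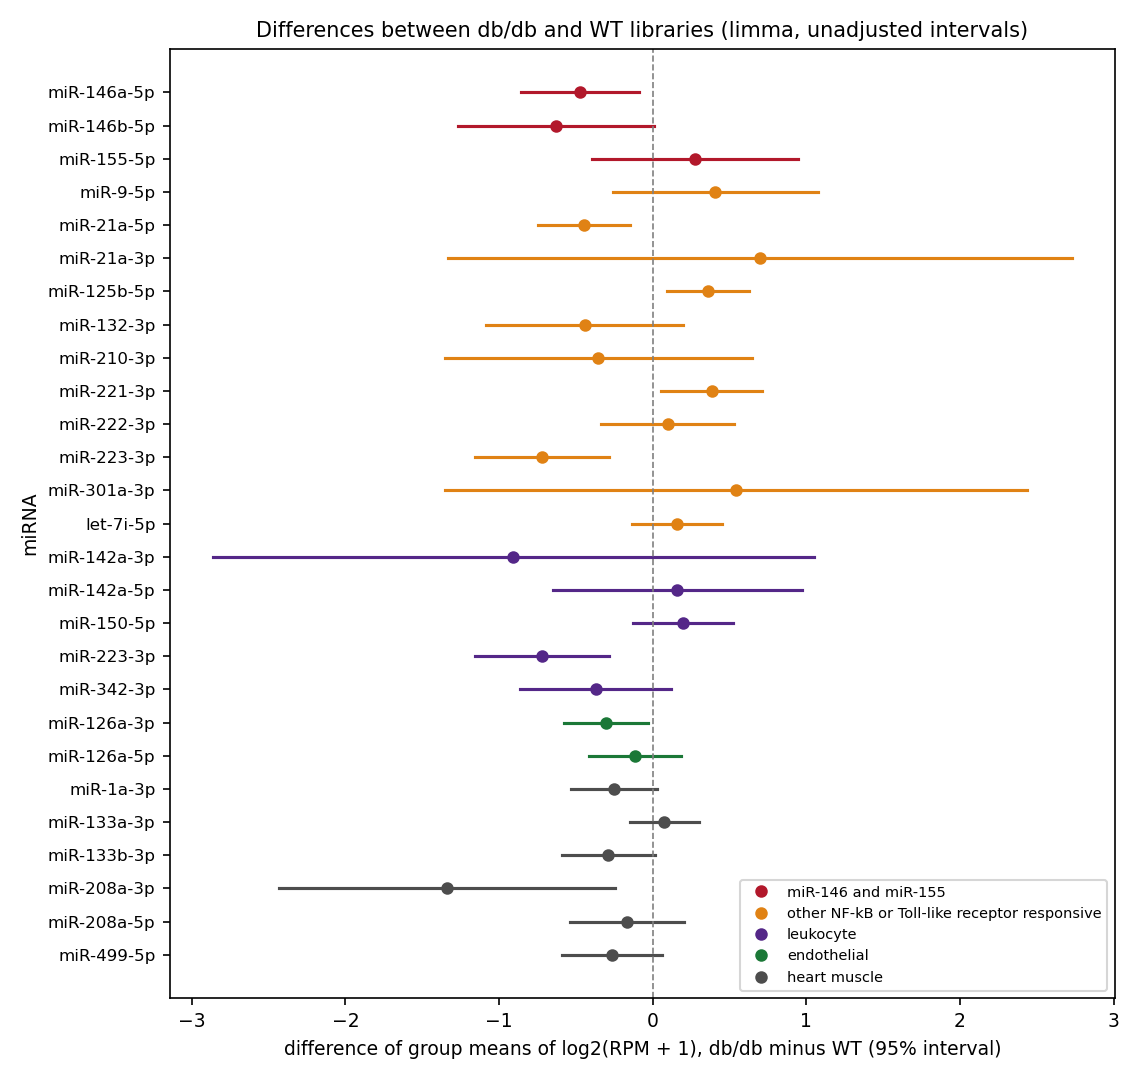
Difference of group means of log2(RPM + 1), db/db minus WT (x axis), with its unadjusted 95% interval from limma, for miR-146a-5p, miR-146b-5p, miR-155-5p and the miRNAs of 4 lists (y axis); colours mark the lists and miR-223-3p stands in 2 of them. miR-146a-5p lies at -0.47 and miR-155-5p at 0.28, and no miRNA in the plot passed adjustment over all rows.

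The plot of differences by list places the miR-146 and miR-155 values beside markers of cells that also express them. miR-146a and miR-155 are abundant in leukocytes and miR-146a also in endothelium. The leukocyte list had 2 of 5 values above 0 and 3 below, with a median of -0.37, and limma called 0, with 1 at an unadjusted p under 0.05 (miR-223-3p). Its summed level was 3065 to 6837 RPM in db/db libraries and 3467 to 5354 RPM in WT libraries, mostly from the lymphocyte miRNA miR-150-5p, at 4196 ± 1385 RPM in db/db and 3570 ± 777 RPM in WT libraries (SD, n = 6 each). miR-142a-3p, a general blood cell miRNA, was above 0 in 4 of 6 db/db libraries and in 5 of 6 WT libraries. Its opposite arm, miR-142a-5p, was above 0 in every library. That arm averaged 54.5 ± 21.7 RPM in db/db and 48.5 ± 20.5 RPM in WT libraries (SD, n = 6 each). The endothelial pair had both values below 0 (median -0.21) and a summed level of 15588 to 25095 RPM in db/db and 18852 to 29569 RPM in WT libraries. Over heart muscle miRNAs 5 of 6 values were below 0 (median -0.26), and over the last 2 lists limma called 0, with 1 in each at an unadjusted p under 0.05 (miR-126a-3p and miR-208a-3p, both lower). Over all 646 rows limma called 0.155%, 8.98% had an unadjusted p under 0.05 and 52.3% had a value below 0. The part of these cell types in the miR-146 and miR-155 values was not tested.

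**Figure D4:**
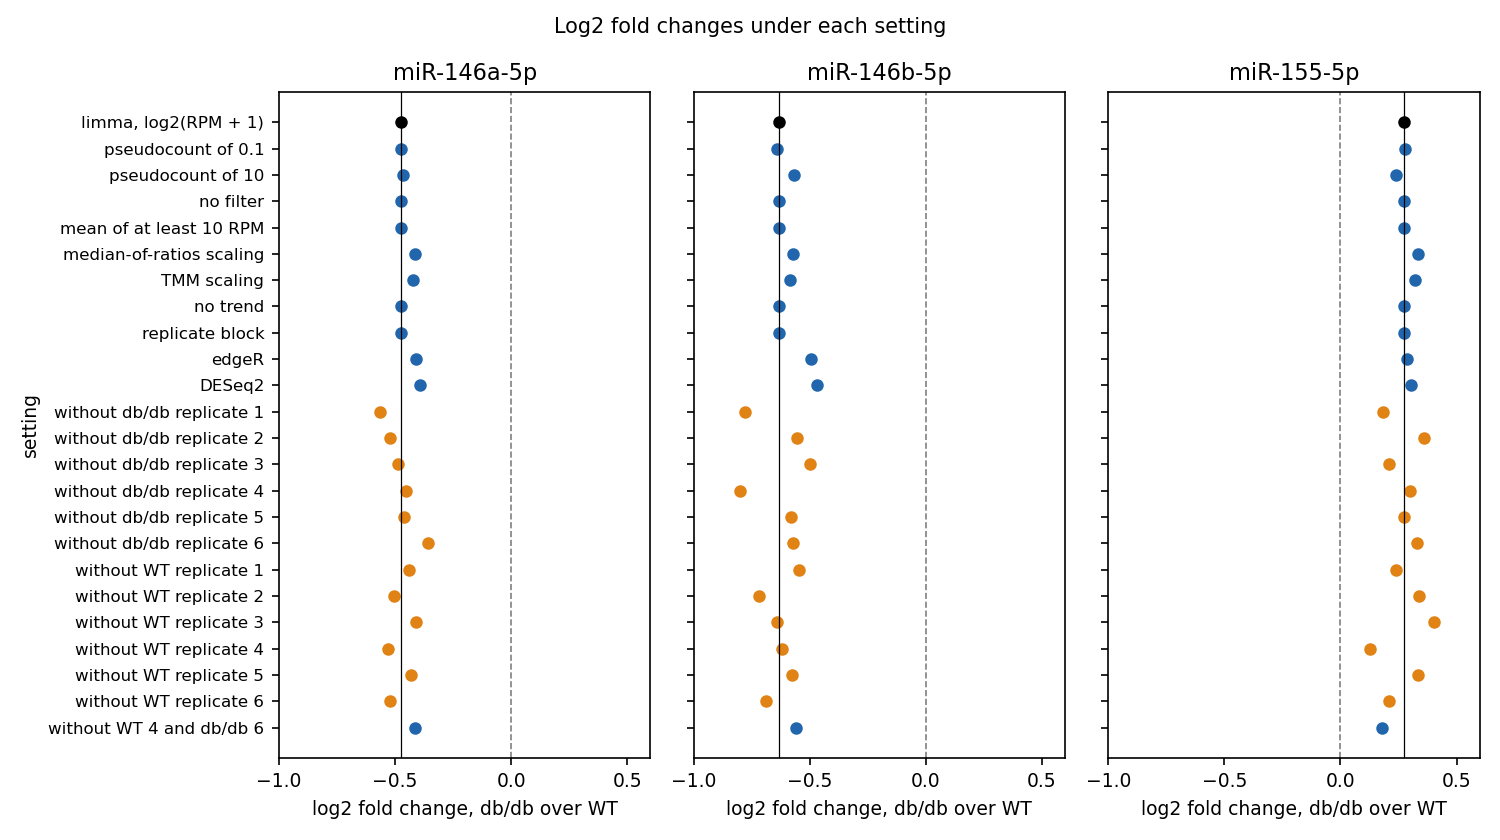
Log2 fold change, db/db over WT (x axis), of miR-146a-5p, miR-146b-5p and miR-155-5p under each setting (y axis); black is limma on log2(RPM + 1) with all libraries, blue another setting, orange a fit without 1 library, and the dashed line marks 0. miR-146a-5p spans -0.56 to -0.36 without 1 library and miR-155-5p 0.13 to 0.40.

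The plot of settings shows that the sign of each of these 3 values was the same in all the fits run. Over the fits that left out 1 library, miR-146a-5p ranged from -0.56 to -0.36, miR-146b-5p from -0.80 to -0.50 and miR-155-5p from 0.13 to 0.40 on the log2 scale. The limma adjusted p stayed above the threshold in each, with a lowest value of 0.310, for miR-146a-5p without db/db library 1.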

How the data were processed

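Small RNA of 6 db/db and 6 WT samples of cardiac mitochondria was analysed from 1 deposited table. The authors deposited values named TPM; each column sums to 1000000 RPM and holds whole multiples of the worth of 1 read, and the deposited values are therefore treated as RPM with no length term. Per the submitters' processing notes the genome build was GRCm39; for the aligner, miRNA annotation and read assignment, the tool is not given in the sources used. Per the labels' protocols, adapters were ligated to total RNA before reverse transcription, PCR and gel purification. Reads were recovered with 1 total per column (100% whole within 0.01 of a read; 412749 to 1382046 reads). No pair of libraries agreed within sampling noise (chi-square per degree of freedom at least 18.6 in 66 pairs).

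The members and lists were chosen with earlier results of these data known. The main test was limma 3.58.1 (R 4.3.3) fitted to log2(RPM + 1) with an abundance trend, on the 646 rows whose mean reached 1 RPM, two-sided, Benjamini-Hochberg adjusted, called under 0.05, without a replicate block. The design assumed TPM, and the log-scale test was kept for RPM. Ratios of reads were compared by exact permutation. Alternatives were edgeR 4.0.16 (TMM) and DESeq2 1.42.0 on recovered reads, pseudocounts of 0.1 and 10, other filters and scalings, no trend, the block, and libraries left out. Named miRNAs were the 4 members, their other arms, the fixed lists (values for those at an unadjusted p under 0.05 and others chosen after seeing them) and, for each member of at least 10 RPM, the 3 with the highest correlation. Intervals and floors (3 reads) cover counting error only or the spread between libraries. Plots were drawn with matplotlib 3.10.9 in Python 3.11.15.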

Additional observations from a re-analysis of the deposited data

Results flagged for a closer look

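Among 16 groups of 6 values, 3 held a library far from the other 5, where chance flags about 1 in 20, or 0.8 here. miR-146b-3p was 30.4 RPM in db/db library 2, while the other db/db libraries reached at most 7.77 RPM, a gap of 0.744 of the range. That library also held 13 rows at 10 RPM or more that were at 0 in every other library, where the other 11 libraries held 2 to 13 such rows. The ratio of miR-146a-5p to miR-155-5p was 9.23 in db/db library 2, while the other db/db libraries reached at most 5.91 (0.728 of the range). Recovered depth was 1382046 reads in db/db library 5, while the other db/db libraries reached at most 773784 (0.628 of the range).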

How the results depend on the processing

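miR-146a-5p, miR-146b-5p and miR-155-5p kept their direction in every fit. For miR-146a-5p the unadjusted limma p was 0.0636 without a trend and 0.0612 without db/db library 6. It was under 0.05 in every other fit. Its log2 fold change was -0.41 with median-of-ratios and -0.42 with TMM scaling. The direction of miR-146b-3p was fixed in advance, since it was at 0 in every WT library. Every adjusted p of the 4 that was given stayed above the threshold. DESeq2 gave none for miR-146b-3p and miR-155-5p. miR-146b-3p had no fitted value at a mean of at least 10 RPM or without db/db library 2. Its fitted limma log2 fold change moved with the constant added: it was 1.35 in the main fit, 2.43 with a pseudocount of 0.1 and 0.47 with 10. On recovered reads it was 4.70 by DESeq2 and 5.32 by edgeR. In limma without 1 library it was 0.99 to 1.62. Without 1 library the log2 ratio of miR-146a-5p to miR-146b-5p ranged from 0.01 to 0.35. The planned log2 ratio of miR-146b-5p to miR-146b-3p (-2.13, and -2.61 to -1.25 without 1 library) reflects 5p reads over the added 0.5 in 10 of 12 libraries, and nothing is drawn from it. Over all rows limma called 1; it called 0 with a pseudocount of 0.1 or 10, without a filter, at a mean of at least 10 RPM, without WT 4 and db/db 6, or without a trend. With median-of-ratios or TMM scaling the count was 2, both higher in db/db, in place of the 1 lower; at an unadjusted p under 0.05 the split of 28 higher and 30 lower became 32 and 20, and 31 and 20. With the replicate block 9 were called (3 higher, 6 lower); edgeR called 3 (2 higher, 1 lower) and DESeq2 8 (6 higher, 2 lower). Leaving out 1 library gave 0 to 7 calls: 0 without db/db 1, 2 or 3 or without WT 2, 4, 5 or 6, 3 without db/db 4, 7 without db/db 5, 6 without WT 1 or WT 3. The cause was not tested. With the block the limma adjusted p was 0.151 for miR-146a-5p, 0.378 for miR-146b-5p and 0.696 for each of the others, at unchanged fold changes (-0.47, -0.63, 1.35 and 0.28). The paired ratio of miR-146a-5p to miR-146b-5p differed by 0.16 (exact sign-flip p = 0.375). The labels do not say that a replicate number marks a pair, so the numbers were not taken as pairs. Same-numbered libraries correlated at -0.06 to 0.31. db/db library 5 correlated best with WT library 5, and the other db/db libraries with a WT library of another number. Reads were few for miR-146b-5p and miR-155-5p, at most 131 per library, and for miR-146b-3p, at most 22. The spread of the 5p rows exceeded the counting error expected from their reads. For miR-146b-5p the SD was 47.1% of the mean in db/db and 22.8% in WT libraries, beside 14.6% and 11.3% from counting. For miR-155-5p it was 24.5% and 33.8%, beside 13.5% and 15.0%.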
